A study of Mus musculus with 2 samples.

Results

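The cells described here are capillary-side endothelial cells of the mouse dorsal meninges, recognized in single-cell RNA-seq data by the genes Gpihbp1, Rbp7, Btnl9, Cd300lg, Dll4 and Igfbp3. A cell was counted as endothelial when at least 2 of the 5 endothelial genes Pecam1, Cdh5, Egfl7, Flt1 and Podxl were detected and no transcript of Ptprc, the pan-leukocyte gene CD45, was present. It was placed on the capillary side when more of the 6 capillary genes than of the 6 genes Vwf, Cytl1, Tmem252, Slc38a5, Lrg1 and Slco1a4 were detected. The rule found 526 cells of 5816 filtered cells in the data, 199 of 2043 in the Sham library and 327 of 3773 in the TBI library. The other endothelial cells were 253 cells with the opposite lead, called other-side cells below, and 105 cells with a tie. A further 8 barcodes met the gene rule and were left out for excess hemoglobin (7 barcodes) or mitochondrial (1 barcode) transcripts.

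Both libraries came from male wild-type C57BL/6J mice (C57BL/6 in the records), given as 10 weeks old, or 10 to 12 weeks in another field of the records. The Sham mice had the procedure without injury, and the TBI mice had a mild closed-skull traumatic brain injury. Meninges were taken 1 week later, and 5 mice were pooled for each library. The dissected tissue was the dorsal meninges attached to the skullcap, away from the point of impact, and live single cells were sorted without selection for a cell type. With 1 library for each group, no difference between Sham and TBI could be tested against variation between mice. Intervals given below are 95% intervals and cover counting error only. Those of shares and log2 ratios are exact binomial (Clopper-Pearson), and those of differences between shares combine the bounds of both shares and are approximate.

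The capillary-side cells held 412102 unique molecular identifiers (UMIs, each standing for 1 captured transcript) in the Sham library and 780495 in the TBI library. Their median depth was 1875 UMIs and 1133 genes per cell in Sham and 2072 UMIs and 1251 genes in TBI. Levels are the summed UMIs of a gene in the cells concerned per 1000000 UMIs of those cells (counts per 1000000, CPM), separately for each library. The floor of 3 UMIs corresponded to 7.28 CPM in Sham and 3.84 CPM in TBI. In all, 20 barcodes occurred in both libraries, and 4 of the capillary-side cells carried such a barcode.

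Capillaries are the exchange vessels of a tissue, and their endothelium is shaped by the organ around it. In the dura, the outer sheet of the meninges, capillaries are permeable and many are fenestrated, with pores closed by diaphragms of the protein made from Plvap. Brain and pial capillaries instead form a barrier with tight junctions and dedicated transporters. Gpihbp1 holds lipoprotein lipase on the capillary wall, Rbp7 encodes a cellular retinol-binding protein, Btnl9 a butyrophilin-like surface protein, Cd300lg a receptor of the CD300 family, and Dll4 an endothelial ligand of Notch receptors.

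The 6 genes that chose the cells are given first, as a description. Gpihbp1 (chr15:75596628-75599481, GRCm38, plus strand) was at 1058 CPM in Sham and 1156 CPM in TBI, against 12.6 and 8.11 CPM in other-side cells. Rbp7 (chr4:149449687-149454978, minus strand) was at 320 and 341 CPM, with no UMI in Sham other-side cells and 2.03 CPM in TBI. None of the 6 genes differed by 1.5-fold between the libraries, but their levels depend on the choice of cells by these genes. The 6 genes together summed to 6321 CPM in Sham and 5350 CPM in TBI. Igfbp3, which binds insulin-like growth factors, was at 3917 CPM in Sham and 2791 CPM in TBI. Dll4 was at 296 and 220 CPM, Btnl9 at 248 and 251 CPM, and Cd300lg at 483 and 592 CPM. Few cells carried the whole set. All 6 genes were detected in 4.02% of the Sham cells and 3.98% of the TBI cells, while only 1 of the 6 was detected in 15.6% and 13.1%.

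Shares of cells with a UMI depend on depth, so they were set beside B cells of the same libraries, which lack these genes and had median depths of 3183.5 UMIs in Sham and 2760 in TBI. Gpihbp1 was detected in 59.8% of Sham and 64.2% of TBI capillary-side cells. Among B cells it was detected in 0 of 466 in Sham, which allows a share of up to 0.644% (3 cells of the total), and in 0.857% in TBI. Rbp7 was detected in 27.1% of Sham and 35.5% of TBI capillary-side cells. It was seen in 0 of 466 Sham B cells and 0.214% of TBI B cells. After each cell was thinned to 1000 UMIs, which left out 39 Sham and 38 TBI cells, the shares were 50% and 52.6% for Gpihbp1 and 17.5% and 24.2% for Rbp7.

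The capillary label was checked with a list of 12 capillary genes that the rule did not use. Of the 11 that were tested, that is, had at least 50 UMIs in either kind of cell, all 11 were at least 1.5-fold higher in capillary-side than in other-side cells in both libraries. Over all 4550 genes tested in this way, 559 genes (12.3%) were higher in both. Since the cells were chosen by their expression, these values are a description and no test. The GPI-anchored surface protein gene Ly6c1 was at 4329 CPM in Sham and 4395 CPM in TBI, against 1023 and 1048 CPM in other-side cells. Plvap was at 3943 and 3580 CPM, against 1490 and 2274 CPM. Rgcc, a cell cycle regulator abundant in capillary endothelium, was at 1524 and 1425 CPM, against 101 and 81.1 CPM. Kdr, the main receptor for VEGF, was at 1793 and 1343 CPM, against 454 and 494 CPM. The capillary-side levels of all 4 genes lay above the other-side levels in both libraries.

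Venous and brain barrier genes were low. Of 12 venous genes tested, 10 were at least 1.5-fold lower on the capillary side in both libraries, with median log2 ratios of −3.32 in Sham and −3.03 in TBI, where 270 of all genes (5.93%) were lower in both. Ackr1, the chemokine-binding receptor of venules, had no UMI in Sham and 6.41 CPM in TBI, against 25.2 and 146 CPM in other-side cells. B cells were at the level of the capillary side, with no UMI of Ackr1 in Sham and 6.50 CPM in TBI. Of 12 tested brain barrier genes, 10 were lower in the same way. Mfsd2a, the lipid transporter of barrier endothelium, and Apcdd1, a Wnt target, had no UMI in the capillary-side cells of either library. Slc2a1, the glucose transporter of the barrier, was at 34.0 and 43.6 CPM, against 353 and 819 CPM. Of 7 lymphatic genes, only the receptor gene Flt4 had a UMI in Sham (160 CPM, and 172 CPM in TBI), and the lymphatic regulator Prox1 had no UMI in Sham and 5.12 CPM in TBI. Arterial genes were not low. Of 11 tested, 4 were higher on the capillary side in both libraries, Hey1, Efnb2, Alpl and Cxcl12, and 1 was lower, Mgp, with medians of −0.09 in Sham and 1.26 in TBI. The list summed to 3392 CPM in Sham and 3717 CPM in TBI, against 6678 and 7040 CPM. Cxcl12, the chemokine gene of arterial endothelium, was at 1818 and 1511 CPM, against 688 and 249.2 CPM. The label capillary is therefore kept for the side of the rule, which also holds arterial-like cells (described below), and the meningeal layer of the cells was not identified.

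**Figure D1:**
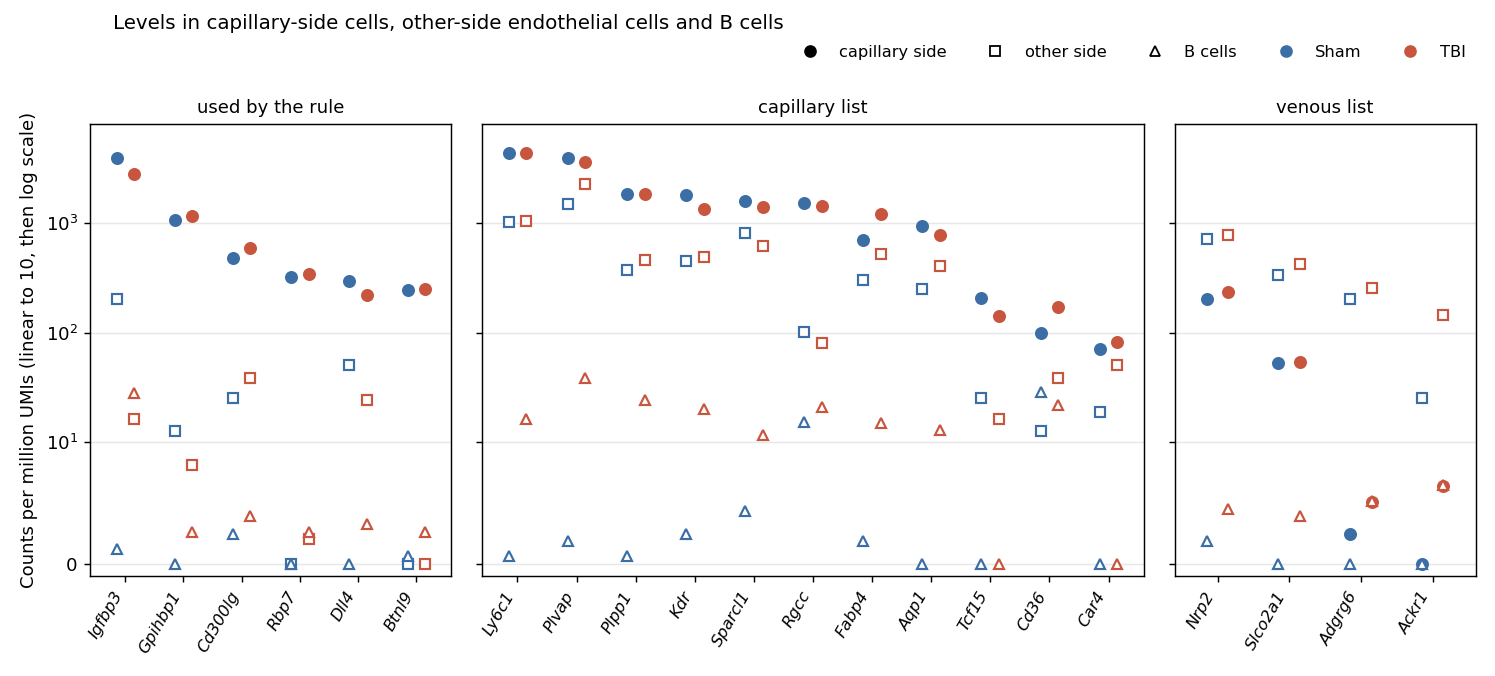
Level in CPM (vertical axis, linear to 10 and logarithmic above) of the genes used by the rule, of the capillary list and of 4 venous genes, in capillary-side cells (filled circles), other-side endothelial cells (squares) and B cells (triangles) of the Sham (blue) and TBI (red) libraries, each point being UMIs summed over the cells of 1 library. Filled circles lie above squares of the same library for the 11 tested capillary genes and below them for Nrp2, Slco2a1, Adgrg6 and Ackr1.

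Values at the edge of the rule differed by gene. With a lead of 1 gene, 47 Sham and 73 TBI cells were just inside, and with a tie 43 and 62 cells were just outside. Ly6c1 was at 3936 CPM in Sham and 2607 CPM in TBI just inside, and at 1722 and 1141 CPM just outside. Rgcc was at 1317 and 1199 CPM just inside and at 537 and 337 CPM just outside. Kdr was at 980 and 876 CPM just inside and at 1086 and 450 CPM just outside, so in Sham it was lower inside. Cells with a lead of 3 genes or more, 102 in Sham and 179 in TBI, had 4732 and 5029 CPM of Ly6c1, and the 50 Sham cells with a lead of 2 genes had 3391 CPM, below those with a lead of 1.

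Capillary-side cells were 9.74% of filtered cells in Sham (8.49 to 11.1%) and 8.67% in TBI (7.79 to 9.61%), a difference of −1.07 percentage points (−2.70 to 0.49). Among endothelial cells they were 64.8% in Sham (59.2 to 70.2%) and 56.7% in TBI (52.5 to 60.8%). The difference of −8.15 points (−14.9 to −1.19) leaves out 0 for counting error. Other-side cells took 21.2% and 32.6% of endothelial cells, 11.4 points more in TBI (5.12 to 17.4), while all endothelial cells together were 15.0% and 15.3% of filtered cells. The difference was −5.96 points (−13.7 to 1.94) after thinning each cell to 1000 UMIs and −5.49 points (−12.5 to 1.59) where a lead of 2 genes was asked for. The rule counts single detected transcripts, and B cells carried more UMIs of its genes in TBI. In them the 6 capillary genes summed to 4.33 CPM in Sham and 42.9 CPM in TBI. The 6 genes of the other side summed to 1.85 and 33.8 CPM. The part of transcripts from other cells in these shares was not tested. Variation between pools of mice was not measured.

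The genes furthest toward the capillary side, rule genes left out, included Ramp3, Rsad2, Rgcc (above) and Penk. The median log2 ratio of all tested genes was 0.21 in Sham and 0.13 in TBI, and the ratios given are not centered on it. Ramp3, a partner of the adrenomedullin receptor, was at 308 CPM in Sham and 284 CPM in TBI, against 6.31 and 8.11 CPM in other-side cells (log2 ratios of 5.03 and 4.97). Esm1, which encodes the proteoglycan endocan of growing vessels, was at 430 and 325 CPM, against 50.5 and 8.11 CPM. Mgll, which cleaves monoacylglycerols to fatty acids, was at 820 and 758 CPM, against 88.4 and 36.5 CPM. These genes were higher in both libraries with intervals above 0. Jam3, a junctional adhesion molecule, was at 250 and 187 CPM, against 12.6 and 14.2 CPM, and Cd24a, a surface glycoprotein, at 524 and 500 CPM, against 44.2 and 32.4 CPM. The repair protein gene Dysf was at 189 and 163 CPM, against 18.9 and 14.2 CPM, and the noncoding transcript Gm12002 at 116 and 104 CPM, against 6.31 and 2.03 CPM.

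Several leading genes had no UMI on the other side, so that their ratio has only a lower bound against 3 UMIs in that library. Fut4, a fucosyltransferase gene, was at least 3.59-fold higher in Sham and 6.32-fold in TBI. The olfactory receptor gene Olfr1396 was at least 3.08-fold and 5.69-fold higher. Ssu2 was at least 3.84-fold higher in Sham, Prdm1, which encodes the repressor BLIMP-1, at least 3.20-fold, and F2r, the thrombin receptor gene, at least 1.92-fold, and in TBI their log2 ratios were 4.57, 3.79 and 3.35. All 5 genes were thus higher in both libraries, although the bounds in Sham were modest. Penk, the precursor of enkephalin peptides, reached 536 CPM in Sham and 644 CPM in TBI, against 6.31 and 44.6 CPM, but was detected in only 4.02% and 7.03% of the capillary-side cells.

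The genes furthest on the other side included Ackr1 (above) and Ptn, a heparin-binding growth factor gene. It was at 12.1 CPM in Sham and 19.2 CPM in TBI on the capillary side, against 612 and 963 CPM. Adgrg6, an adhesion receptor gene, was at 2.43 and 5.12 CPM, against 202 and 257 CPM. The tight junction gene Ocln had no UMI in Sham and 2.56 CPM in TBI, against 94.7 and 81.1 CPM, and was at least 13.0-fold lower in Sham. Ptgs2, a prostaglandin synthase gene, was at 2.43 and 1.28 CPM, against 75.7 and 156 CPM, and Pla2g4a, which frees arachidonic acid, at 2.43 and 6.41 CPM, against 101 and 180 CPM. A further 8 genes, Mal, Ccdc141, Ctnnal1, Pde3a, Prr15, Pglyrp1, Pgm5 and Degs2, lay at 15.4 CPM or less in the capillary-side cells of each library.

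Gene lists summarized these differences by role, and each count stands beside 12.3% of all genes higher and 5.93% lower in both libraries. Of 5 VEGF receptor and co-receptor genes tested, 3 were higher on the capillary side in both libraries, Kdr, Flt4 and Nrp1, while Nrp2 was lower. Of 10 Notch genes, 5 were higher and 2 lower. Nrarp, a Notch target and feedback regulator, was at 264 CPM in Sham and 259 CPM in TBI, against 69.4 and 12.2 CPM, whereas the ligand gene Dll1 was at 36.4 and 44.8 CPM, against 164 and 176 CPM. Of 10 genes of vessel growth and tip cells, 7 were higher, with medians of 1.63 in Sham and 2.14 in TBI. They included the basement membrane collagens Col4a1, at 1140 and 1184 CPM against 284 and 193 CPM, and Col15a1, at 250 and 238 CPM against 25.2 and 38.5 CPM. Of 12 lipid genes, 5 were higher in both libraries and 1 lower. Scarb1, the receptor for high-density lipoprotein, was at 1124 and 1016 CPM, against 284 and 257 CPM, and Cd36, a fatty acid transporter gene, at 99.5 and 172 CPM, against 12.6 and 38.5 CPM.

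Other lists held more lower than higher genes, beside 5.93% of all genes lower. Of 6 leukocyte adhesion genes, 4 were lower on the capillary side. Vcam1 was at 7.28 CPM in Sham and 37.2 CPM in TBI, against 448 and 444 CPM, and Icam1 at 46.1 and 29.5 CPM, against 183 and 247 CPM, while Icam2 and Cd34 did not reach 1.5-fold in both libraries. Of 14 genes of clotting and flow control, 6 were lower and 1 higher. Edn1, the vasoconstrictor endothelin, was at 29.1 and 32.0 CPM, against 133 and 170 CPM, and the endothelin receptor gene Ednrb was the 1 higher gene, at 507 and 439 CPM against 63.1 and 126 CPM. Of 13 mitochondrially encoded genes, 9 were lower, with medians of −0.94 in Sham and −0.79 in TBI. Of 21 early response genes, 5 were lower and 0 higher, and of 13 junction genes, 4 were lower and 1 higher. The 19 matrix genes went mostly the other way, with 8 higher and 3 lower, beside 12.3% of all genes higher. Genes of angiopoietin and Tie signaling (6 tested) and of BMP signaling (11 tested) held none past 1.5-fold in both libraries.

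Other-side cells were not free of other cell types. Their smooth muscle and pericyte genes summed to 2853 CPM in Sham and 132 CPM in TBI, led in Sham by Rgs5 at 1117 CPM, while capillary-side cells had 116 and 316 CPM. When cells of both sides with at least 3 genes of the pericyte, fibroblast, macrophage or choroid plexus lists were left out, a choice made after seeing the data, 10 of 11 capillary genes and 20 of 32 tested interferon-induced genes were at least 1.5-fold higher, with 552 of 4122 genes (13.4%) higher in all.

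**Figure D2:**
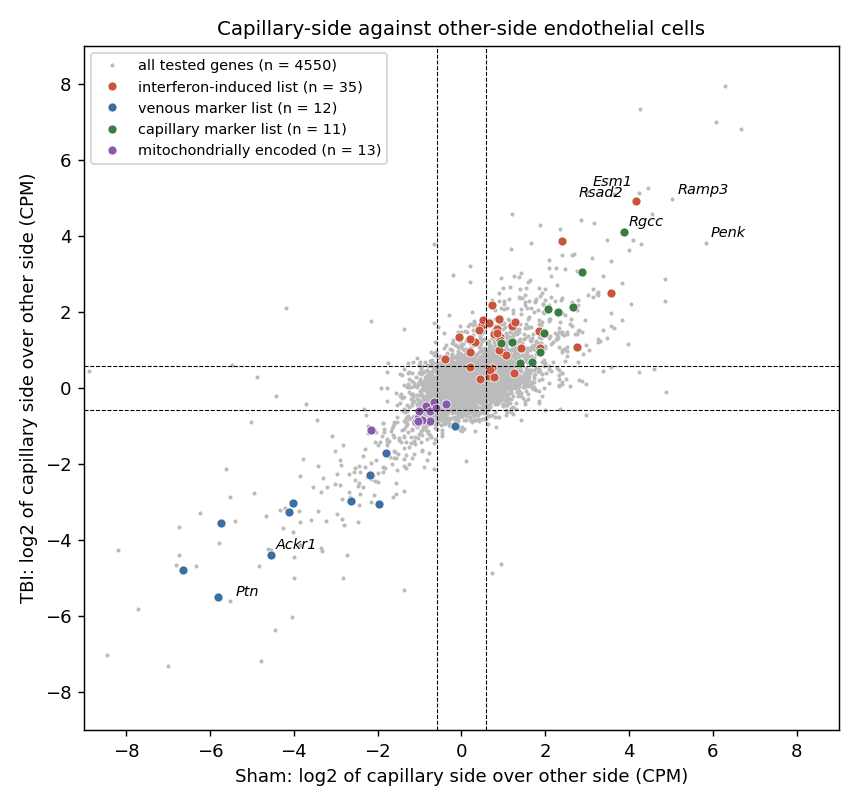
Log2 ratio of the level in capillary-side over other-side endothelial cells, in Sham (horizontal axis) and TBI (vertical axis), for 4550 genes (grey) and for genes of 4 lists (colored), with dashed lines at 1.5-fold. The 13 mitochondrially encoded genes and the 12 venous genes lie below 0 on both axes, and the 11 capillary genes lie above both upper lines.

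Interferon-induced genes were higher in capillary-side cells in both libraries. Of 35 tested, 20 were at least 1.5-fold higher than in other-side cells in both libraries and 0 lower, with medians of 0.84 in Sham and 1.301 in TBI against 0.21 and 0.13 over all genes. The summed level of the list was 11529 CPM in Sham and 13295 CPM in TBI, against 6476 and 8339 CPM. Rsad2, which encodes the antiviral enzyme viperin, was at 284 and 340 CPM, against 12.6 and 10.1 CPM. Bst2, the membrane tether of budding viruses, was at 847 and 976 CPM, against 234 and 342 CPM. Usp18, which removes the ubiquitin-like modifier ISG15, was at 36.4 and 51.2 CPM, against no UMI in Sham and 8.11 CPM in TBI. Of 14 MHC genes, 8 were higher as well. B2m, the invariant chain of class I molecules, was at 1946 and 1899 CPM, against 751 and 1248 CPM.

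Counting genes rather than UMIs gave the same order at equal depth. In cells thinned to 1000 UMIs, the median capillary-side cell had 5 of the 43 interferon-induced genes in the matrix detected in both libraries, with ranges of 1 to 19 genes in Sham and 0 to 30 in TBI. The median was 3 genes in other-side cells and in B cells of both libraries. At least 8 genes were detected in 20.6% of Sham (14.6 to 27.7%) and 26.0% of TBI capillary-side cells (21.0 to 31.4%). The share was 7.84% and 6.63% in other-side cells, and 1.62% and 4.61% in B cells. At least 12 genes were detected in 5% of Sham (2.18 to 9.61%) and 8.997% of TBI capillary-side cells (5.96 to 12.9%), against 3.92% (0.478 to 13.5%) and 0.602% (0.0153 to 3.31%) of other-side cells. At either limit the intervals of the 2 kinds of cells overlapped in Sham and not in TBI.

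Interferon-induced genes are switched on through a promoter element whose core repeats the letters GAAA with a spacer, to which the interferon-activated STAT and IRF proteins bind. The pattern GAAANNGAAA was searched on both strands of RefSeq promoter windows (GRCm38.p6, 250 bases before to 50 after each gene start). It occurred in 19 of 30 genes of the interferon-induced list with a window (63.3%), in 1079 of 27025 genes in all (3.99%), and in 0 of 7 capillary genes. It was also in 2 of 11 MHC genes (18.2%), in 1 of 8 arterial genes (12.5%) and in 5 of the 10 leading genes of subcluster 6 (described below). No match was found in the windows of Ifit2. Of the genes with a match, 4 are shown by the 200 bases before the start, chosen after their values were seen, because their levels are given for subcluster 6 below. Capitals mark the matched letters, which read TTTCNNTTTC where the match is on the opposite strand. The windows are Isg15 at chr4:156200819-156201018 (minus strand), Ifit1 at chr19:34640689-34640888 (plus), Ifit3 at chr19:34583329-34583528 (plus) and Rsad2 at chr12:26456453-26456652 (minus).
Isg15: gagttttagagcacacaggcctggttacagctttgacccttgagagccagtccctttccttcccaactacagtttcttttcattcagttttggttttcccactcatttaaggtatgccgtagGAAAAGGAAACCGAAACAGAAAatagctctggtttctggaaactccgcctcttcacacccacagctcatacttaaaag
Ifit1: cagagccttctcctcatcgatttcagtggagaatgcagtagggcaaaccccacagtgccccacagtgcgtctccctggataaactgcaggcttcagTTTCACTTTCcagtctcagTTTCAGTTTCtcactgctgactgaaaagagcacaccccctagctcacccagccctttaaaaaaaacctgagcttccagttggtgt
Ifit3: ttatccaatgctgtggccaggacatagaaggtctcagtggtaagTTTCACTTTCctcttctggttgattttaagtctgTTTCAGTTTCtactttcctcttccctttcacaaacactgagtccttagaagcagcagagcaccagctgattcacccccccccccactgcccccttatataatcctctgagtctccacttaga
Rsad2: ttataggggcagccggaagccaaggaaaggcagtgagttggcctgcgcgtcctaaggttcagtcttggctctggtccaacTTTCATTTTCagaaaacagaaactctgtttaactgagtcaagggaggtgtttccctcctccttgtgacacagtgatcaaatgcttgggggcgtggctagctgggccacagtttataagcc

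In Isg15, 3 matches overlap and begin 78, 72 and 66 bases before the start. Ifit1 has 2 matches at 104 and 85 bases, Ifit3 has 2 at 156 and 122 bases, and Rsad2 has 1 at 120 bases. A match describes letters and is no measured binding site.

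The capillary-side cells were themselves mixed. Clustering them with the rule genes left out gave 6 subclusters, described by their leading genes, which are no test since the clustering used them. All 6 held cells of both libraries. The largest, subcluster 3, had 176 cells, 39.2% of the Sham and 29.97% of the TBI members. Its leading genes, such as Zfp62 and Dgkh, were detected in at most 27.8% of its cells, and 21 of 35 interferon-induced genes were at least 1.5-fold lower in it than in other members, beside 12% of 4434 genes. Kdr was at 2128 CPM in it and at 1207 CPM in other members. Subcluster 1, with 102 cells, was led by Ttr and Enpp2, choroid plexus genes found in 27.5% and 11.8% of its cells against 29.95% and 15.3% of other members, and then by Aplnr, the apelin receptor gene (307 CPM against 99.8 CPM). Gpihbp1 was at 1611 CPM in subcluster 1 against 992 CPM.

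Subcluster 2 was arterial-like. It had 94 cells, 16.1% of Sham and 18.96% of TBI members, and 9 of 11 tested arterial genes were at least 1.5-fold higher in it than in other members, with a median log2 ratio of 2.69, beside 10.5% of all genes higher and 18.2% lower. Its leading genes included Gja5, the gap junction gene of arterial endothelium, at 247 CPM against 7.04 CPM, and Sema3g, a semaphorin gene, at 590 CPM against 28.2 CPM. Fbln5, an elastic fiber gene, was at 767 CPM against 24.1 CPM, and Cldn5, a tight junction gene, was at 878 CPM against 26.1 CPM. Of 12 lipid genes tested, 6 were higher in the subcluster and 2 lower. Fabp4, a fatty acid carrier, was at 2892 CPM against 657 CPM, and Cd36 was at 580 CPM against 60.3 CPM. Plvap was lower, at 1282 CPM against 4188 CPM, as was Kdr, at 636 CPM against 1670 CPM, and 4 of 5 VEGF receptor genes and 8 of 10 growth genes were at least 1.5-fold lower. Gpihbp1 was detected in 57.4% of these cells and in 63.7% of other members. The macrophage gene C1qa was at 611 CPM in subcluster 2 but in only 8.51% of its cells.

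Subcluster 4, with 102 cells (20.6% of Sham and 18.7% of TBI members), was led by Penk at 3179 CPM against 43.95 CPM in other members, although Penk was detected in 17.6% of its cells. Its more evenly carried genes were Itm2a, an integral membrane protein gene also found in barrier endothelium, in 84.3% of cells against 35.6%, and Pltp, the phospholipid transfer protein gene, in 85.3% against 54.7%. Rgs5, a pericyte gene, was also among its leading genes, at 495 CPM against 79.7 CPM but in 11.8% of cells against 6.37%. The pericyte and smooth muscle list summed to 139 CPM in the Sham and 821 CPM in the TBI cells of subcluster 4, and its part in these values was not tested. Of 6 brain barrier genes tested, Itm2a and Pltp were the 2 at least 1.5-fold higher in the subcluster and 1 was lower, with a median of 0.12, beside 9.81% of all genes higher and 17% lower. Esm1 was at 766 CPM against 273 CPM and Plvap at 5536 CPM against 3304 CPM. Fabp4 was at 154 CPM against 1219 CPM and Cd36 at 9.34 CPM against 177 CPM, the reverse of subcluster 2. Subcluster 5 had 7 cells with a median of 8510 UMIs, was led by fibroblast genes such as Fmod and Col1a1, and held 3 predicted doublets.

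Subcluster 6 carried the interferon-induced genes. It had 45 cells, 14 in Sham (7.04%) and 31 in TBI (9.48%), and was led by Ifit2, Ifit1, Oasl1, Ifit3 and Ifit3b. Of the 35 tested genes of the list, 34 were at least 1.5-fold higher in it than in other members and 1 lower, beside 14.1% of all genes in each direction, with a median of 1.75, and the list summed to 26922 CPM against 11178 CPM. Within the subcluster the libraries were close, at 27120 CPM in Sham and 27706 CPM in TBI. Since the clustering grouped cells by genes of this kind, the count, the sums and their closeness are a description and no test. Isg15 was at 1477 CPM in Sham and 1305 CPM in TBI, Rsad2 at 1369 and 1463 CPM, Ifit1 at 504 and 435 CPM, and Ifit3 at 468 and 699 CPM. The interferon-induced cells were otherwise like the rest in the rule genes, with Gpihbp1 at 1206 CPM against 1114 CPM and Rbp7 at 376 CPM against 330 CPM. Of 14 MHC genes, 7 were higher in it and 3 lower. Outside it, the list summed to 12306 CPM in Sham and 17412 CPM in TBI in subcluster 2, where macrophage markers went from 221 to 3975 CPM and their part was not tested, 13276 and 11762 CPM in subcluster 1, 8102 and 9111 CPM in subcluster 3, and 11799 and 12018 CPM in subcluster 4. At a lower resolution of 0.4, 4 subclusters were found, of which the arterial-like and fibroblast-gene ones were still separate and the interferon-induced one was not.

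**Figure D3:**
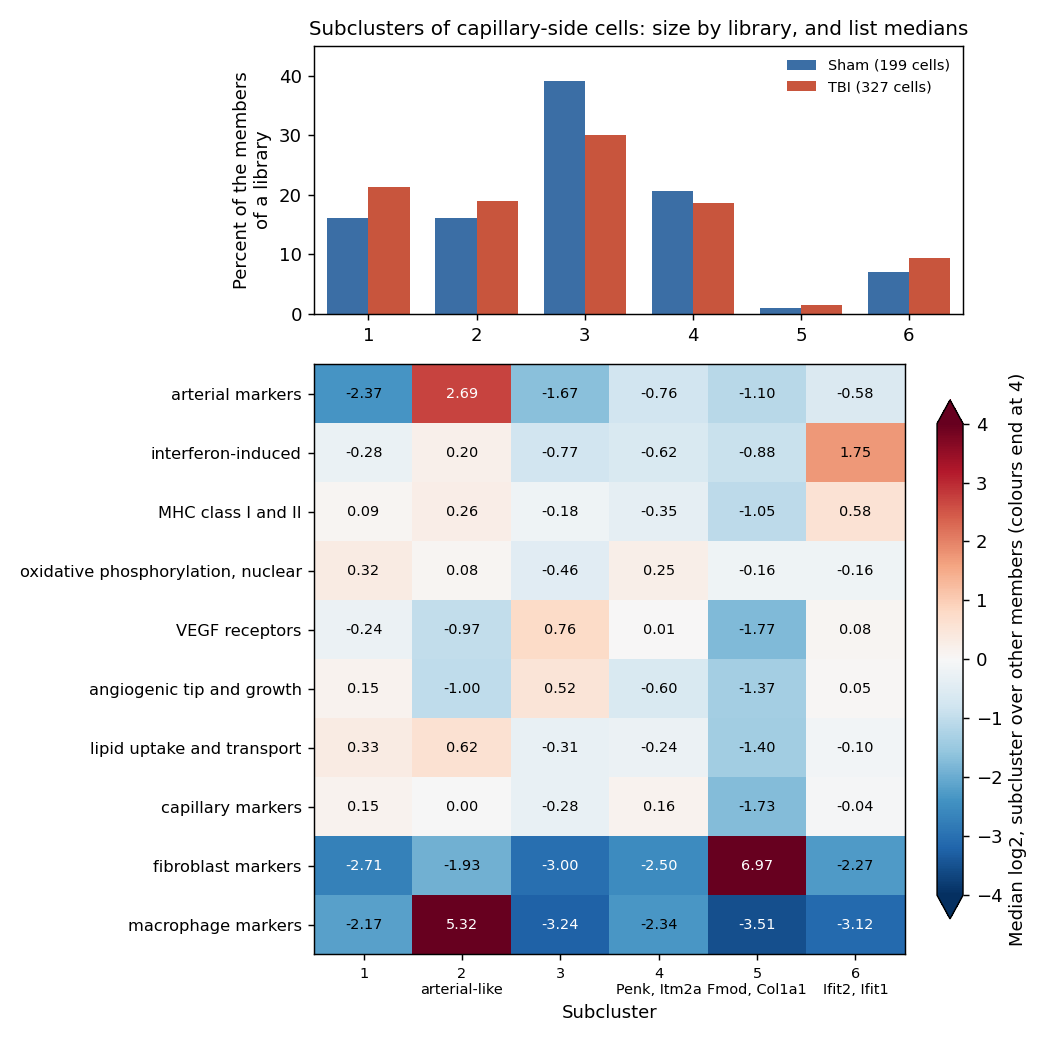
Top, percent of the capillary-side cells of the Sham (blue, 199 cells) and TBI (red, 327 cells) libraries in each of 6 subclusters; bottom, median log2 ratio of each gene list in a subcluster over the other members, as numbers and colors that end at 4 in either direction. Arterial markers stand at 2.69 in subcluster 2 and interferon-induced genes at 1.75 in subcluster 6, while the fibroblast markers of subcluster 5 and the macrophage markers of subcluster 2 come from few cells.

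Between Sham and TBI, most genes tested in capillary-side cells differed by less than 1.5-fold. Of 4434 genes with at least 50 UMIs over both libraries, 244 (5.5%) were at least 1.5-fold higher in TBI and 205 (4.62%) at least 1.5-fold lower, with a median log2 ratio of −0.01. The counting interval left out 0 for 476 genes (10.7%). Capillary identity genes were close to equal: 2 of 11 tested genes of the capillary list, Cd36 and Fabp4, were at least 1.5-fold higher and 0 were lower, with a median of −0.10. Ly6c1 was at 4329 CPM in Sham and 4395 CPM in TBI.

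Ttr had the largest ratio. Ttr, the transthyretin gene of choroid plexus, went from 75 UMIs in Sham to 4386 in TBI (log2 ratio 4.94), and 95.9% of its TBI UMIs were in 3 cells. Ttr was detected in 15.6% of Sham and 37.9% of TBI capillary-side cells, next to 14.2% and 38.8% of B cells, so its spread over cells was at the level of B cells. The other named genes with a higher level were the complement genes C1qa, C1qb and C1qc, Mt1, Mt3, Ctsc, Ecrg4, Fcer1g and Enpp2, with log2 ratios of 2.71 to 4.29. For each of them, 60% or more of the TBI UMIs were in 3 cells.

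The lists of other cell types moved with the group. Counts of higher genes in them stand beside 5.5% of all tested genes higher in TBI. Of 9 macrophage genes, 5 were tested and 5 of these were higher in TBI, the list summed to 92.2 CPM in Sham and 834 CPM in TBI, C1qc was the most abundant, and Csf1r had no UMI in Sham. Of 9 fibroblast genes, 7 were tested and 5 higher, with sums of 726 and 1576 CPM, Igfbp5 the most abundant and Lum at no UMI in Sham. Of 10 pericyte and smooth muscle genes, 1 was tested, Rgs5, which was the most abundant and higher, with sums of 116 and 316 CPM and no UMI of Notch3, Myh11 or Higd1b in Sham. The 5 choroid plexus genes summed to 184 and 5671 CPM, of which only Ttr was tested, and Folr1, Kl and Clic6 had no UMI in Sham. B cell genes summed to 24.3 and 29.5 CPM. In B cells of the same libraries, the macrophage list summed to 1259 CPM in Sham and 2208 CPM in TBI. The fibroblast list summed there to 22.9 and 386 CPM. The pericyte and smooth muscle list summed there to 3.71 and 47.5 CPM, and the choroid plexus list to 72.3 and 179 CPM. The higher sums in TBI were thus not seen on the capillary side alone. At least 3 genes of 1 of the first 4 lists were detected in 3 Sham cells (1.51%) and 28 TBI cells (8.56%). Each comparison below was therefore also made without these cells, a choice made after seeing the data, and their part in the values with all cells was otherwise not tested. Leaving them out did not remove the difference, as the fibroblast list then summed to 129 CPM in Sham and 418 CPM in TBI.

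Hemoglobin genes were the furthest in the other direction. Hbb-bs was at 1009 CPM in Sham and 200 CPM in TBI (log2 ratio −2.33, −2.61 to −2.07), and all 4 tested red cell genes were lower, with sums over 5 genes of 2145 and 382 CPM. B cells showed the same, with Hbb-bs at 696 and 155 CPM, and so did other-side cells, at 947 and 150 CPM. Without the limit of 5% hemoglobin, which adds 3 Sham and 4 TBI cells, the ratio of Hbb-bs was −0.02.

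Interferon-induced genes were on balance higher in TBI. Of 35 tested, 7 were at least 1.5-fold higher, 0 lower and 27 above 0, with a median of 0.33 against −0.01 over all genes and 5.5% of genes higher. Isg15 was at 197 CPM in Sham and 351 CPM in TBI (log2 ratio 0.83, 0.47 to 1.21). Irf7, a transcription factor that amplifies the interferon response, was at 109 and 199 CPM (0.85, 0.38 to 1.38), and Ifit3 at 75.2 and 145 CPM (0.93, 0.36 to 1.57). Each of these 3 genes had an interval above 0. Gbp4, an interferon-induced GTPase gene, was at 97.1 and 164 CPM and Tap1, the peptide transporter for MHC class I, at 72.8 and 119 CPM. The other 2 were Ifi44, whose interval of −0.01 to 1.54 held 0, and Ifi27l2a, with 89.7% of its TBI UMIs in 3 cells. Ifitm3, which blocks entry of viruses, was at 2051 and 2583 CPM (0.33). Ly6e, the most abundant of the list, was at 4509 and 4536 CPM. Without the 31 cells carrying other genes, 7 of 32 tested were higher, with Ifit2 (0.73, −0.02 to 1.59) in place of Ifi27l2a, which was no longer tested, and the median was 0.30, beside 5.01% of all genes higher and 4.06% lower. In other-side cells the list summed to 6476 CPM in Sham and 8339 CPM in TBI. B cells of the same libraries also had higher values in TBI, with Isg15 at 26.0 and 67.6 CPM, Irf7 at 35.8 and 102 CPM and Ifit3 at 3.71 and 27.3 CPM. The difference was therefore not seen on the capillary side alone.

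By median log2 ratio, the lists that follow moved less. Summed levels did not keep this order. Their log2 ratios were 0.23 for mitochondrially encoded, −0.27 for VEGF receptor and 0.21 for interferon-induced genes. The 13 mitochondrially encoded genes were all above 0 with a median of 0.25, and none reached 1.5-fold. mt-Co1 was at 3429 CPM in Sham and 4049 CPM in TBI. Of 14 MHC genes, 3 were higher, Tap1 and the class II genes H2-Eb1 and Cd74, with a median of 0.15, beside 5.5% of all genes higher. H2-D1, a class I heavy chain, was at 2861 and 3386 CPM (0.24, 0.14 to 0.34). Of 73 nuclear-encoded genes of oxidative phosphorylation, 2 were higher, Atp5c1 and Cox7b, a share below that 5.5%, and the median was 0.10.

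The lipid list held 3 of 12 tested that were at least 1.5-fold higher and 0 lower, beside 5.5% of all genes higher and 4.62% lower, with a median of 0.09. Fabp4 was at 701 CPM in Sham and 1201 CPM in TBI (log2 ratio 0.77, 0.58 to 0.97), Cd36 at 99.5 and 172 CPM (0.78, 0.27 to 1.33), and Lpl, lipoprotein lipase itself, at 38.8 and 65.3 CPM (0.72, −0.08 to 1.66). The interval of Lpl held 0. Fabp4 was detected in 22.6% of Sham and 31.5% of TBI cells, and in 20.0% and 24.6% after thinning, against 0.215% and 1.93% of B cells. Without the 31 cells the ratio of Fabp4 was 0.88. Other-side cells showed a like difference, at 303 and 521 CPM. Gpihbp1 itself differed by 0.13 (−0.04 to 0.30).

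The VEGF receptor genes did not pass 1.5-fold in either direction. Kdr was at 1793 CPM in Sham and 1343 CPM in TBI (log2 ratio −0.42, −0.55 to −0.28) and its co-receptor gene Nrp1 at 1250 and 1055 CPM (−0.25, −0.41 to −0.08). Of the 5 tested, 2 were above 0, and the median was −0.11. Notch (10 tested), angiopoietin and Tie (6), junction (11), leukocyte adhesion (2), clotting and flow control (10), fenestrae and caveolae (10) and growth genes (10) had none past 1.5-fold either way, with medians from −0.08 to 0.05. Of 11 BMP and TGF-beta genes, 1 was lower, the inhibitor Smad7, at 291 and 190 CPM (−0.62), beside 4.62% of all genes lower. Without the 31 cells the ratio of Smad7 was −0.54, short of 1.5-fold. Id2 was then higher at 0.70 (−0.08 to 1.59), beside 5.01% of all genes higher. Of 19 matrix genes, Bgn and Mgp were higher and Fn1 lower, beside 5.5% of all genes higher and 4.62% lower. Without the 31 cells only Mgp passed 1.5-fold (1.61), with Bgn at 0.47 and Fn1 at −0.38. The Mgp difference was uneven over the members. With all cells kept, it was at 294 CPM in Sham and 2533 CPM in TBI where the lead was 1 gene. With a lead of 2 genes Mgp was at 283 and 891 CPM. With a lead of 3 genes or more it was at 486 and 553 CPM. In B cells Mgp was at 10.5 CPM in Sham and 177 CPM in TBI and Bgn at 3.71 and 30.6 CPM, and the part of fibroblast transcripts in these values was not tested.

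To find differences carried by many cells, genes were listed whose 3 richest cells held under 30% of the UMIs in each library, at 1.5-fold or more and with an interval that left out 0, a choice made after the values were seen. There were 69 such genes of 143 that were higher and 106 of 115 that were lower. Vim, the intermediate filament gene, was at 738 CPM in Sham and 1249 CPM in TBI (0.76, 0.57 to 0.95), with 0.80 without the 31 cells. S100a6, a calcium-binding protein gene, was at 337 and 512 CPM, Clu, the secreted chaperone clusterin, at 296 and 450 CPM, and Enpp6, a choline phosphodiesterase gene, at 141 and 243 CPM. All 4 were also in a larger share of TBI than Sham cells, but these shares were not thinned and depend on depth. The median depth was 2072 UMIs in TBI and 1875 in Sham. Without the 31 cells the ratio of Clu was 0.45, short of 1.5-fold.

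Beyond the hemoglobin genes, Hspa1a, the inducible HSP70 gene, had the lowest ratio of the genes tested, at 272 CPM in Sham and 102 CPM in TBI (−1.40, −1.84 to −0.98). Hspb1, a small heat shock protein gene chosen after its values were seen, was at 2225 and 1349 CPM (−0.72, −0.85 to −0.59), and Hsp90aa1 was at 398 and 210 CPM (−0.92, −1.24 to −0.60). Hspa8, the constitutive HSP70 gene, likewise chosen after its values were seen, was at 1817 and 1482 CPM, short of 1.5-fold. In other-side cells Hspb1 was at 688 and 638 CPM and Hspa1a at 202 and 182 CPM. With each group in its own library, injury and the handling of the tissue cannot be told apart. In the list of 20 early response genes tested, Hspa1a and Hsp90aa1 were the 2 lower genes and Egr1 the 1 higher. Over all genes 4.62% were lower and 5.5% higher, and the list median was 0.01. Other lower genes were Ets2, an endothelial transcription factor gene, at 311 and 192 CPM, the netrin receptor gene Unc5b at 92.2 and 51.2 CPM, the intermediate filament gene Nes at 170 and 113 CPM, and the transcription factor gene Erg at 131 and 87.1 CPM. Without the 31 cells the ratios of Nes (−0.56) and Erg (−0.40, −0.95 to 0.17) fell short of 1.5-fold. Named by rule but low in level were Mbtd1, Arl5b, Snhg20 and Gja5, each at no more than 35 UMIs in Sham, and H19, with 100% of its Sham UMIs in 3 cells.

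**Figure D4:**
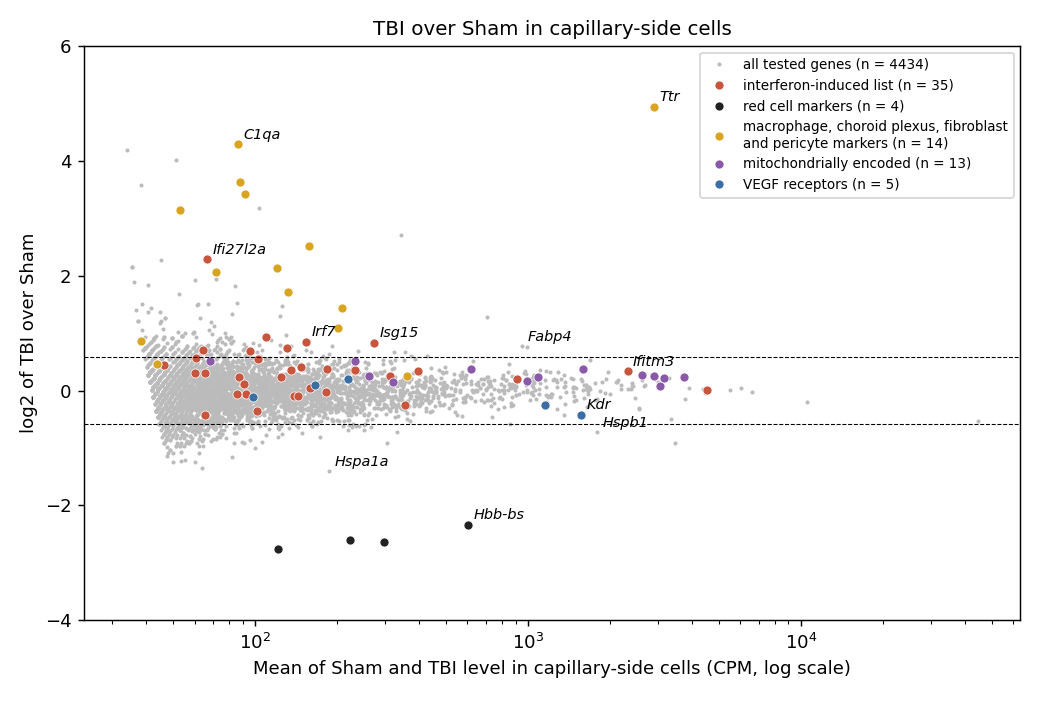
Log2 ratio of TBI over Sham in capillary-side cells (vertical axis) against the mean of the Sham and TBI level in CPM (horizontal axis, log scale), for 4434 genes (grey) and genes of several lists (colored), with dashed lines at 1.5-fold. Markers of macrophages, choroid plexus, fibroblasts and pericytes lie above 0, the 4 red cell genes lie at −2.33 or lower, the 13 mitochondrially encoded genes lie slightly above 0, and Kdr lies at −0.42.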

How the data were processed

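Libraries were made by the authors with the 10 X Chromium 3′ v2 chemistry from about 4000 sorted cells each. The deposited matrices hold counts, whole UMIs per gene and barcode, made with Cell Ranger (2.1.1 in the submitters' notes, 3.1.0 in the matrix header), and the same notes name Seurat 3.9.9 and DESeq2 1.30.0 for later steps not used here. Reads were aligned by the authors to the mouse genome build mm10 (the same assembly as GRCm38). The matrices held 2699 Sham and 4349 TBI barcodes, with 9527334 and 15011079 UMIs; the methods start from fewer barcodes and end at nearly the same number of cells as the filter used here.

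Cells with 150 to 5000 genes, at most 20% mitochondrial and at most 5% hemoglobin UMIs were kept. No annotation of cells was used. The automatic doublet threshold marked only 2 Sham and 4 TBI cells, so the cells with the highest doublet scores were marked at 0.8% per 1000 cells (33 Sham, 114 TBI; 4 and 6 of the capillary-side cells), left in, and removed in an alternative. B cells were taken by 4 marker genes.

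UMIs were summed per library and divided by the total. Log2 ratios add 0.5 to each sum. Genes with at least 50 UMIs over both libraries were tested, in the sense that they could be called at 1.5-fold; no p-values were computed because each group is 1 library. Subclusters came from 20 principal components of 2000 variable genes, 20 neighbors and a resolution of 0.8. For TBI over Sham the 10 genes furthest each way with an interval that leaves out 0 were named, and for capillary-side over other-side cells the 15 furthest each way by the smaller ratio of the 2 libraries, rule genes left out. Of the 15 furthest toward the other side, 1 is not reported here. Members, lists and tests were chosen with earlier results of these data known. Gene positions are from GENCODE (GRCm38) and promoter sequences from RefSeq (GRCm38.p6). Python 3.11.15, numpy 2.4.6, scipy 1.17.1, pandas 2.3.3, scanpy 1.11.5 and scikit-learn 1.9.0 were used, and the scripts were tested on simulated data. Alternatives changed the cell limits, the rule, doublets, thinning, scaling, the pseudocount and the count minimum.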

Additional observations from a re-analysis of the deposited data

Results flagged for a closer look

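Among the list genes and named genes with at least 50 UMIs on both sides, 9 had TBI over Sham ratios of opposite sign in capillary-side and other-side endothelial cells, with counting intervals that left out 0 on both sides. The difference between the kinds of cell was not tested over mice, since each group is 1 library. Plvap, the diaphragm gene of fenestrae, had a log2 ratio of −0.14 on the capillary side and 0.61 on the other side. The water channel gene Aqp1 had −0.27 and 0.68, the membrane protein gene Itm2a −0.45 and 0.62, and the phospholipid transfer gene Pltp −0.25 and 0.48. Ramp2, a partner of the adrenomedullin receptor, had −0.16 and 0.26, and the early response gene Ier3 −0.57 and 0.90. The matrix protein gene Sparc had 0.20 and −0.53, and the mitochondrial gene mt-Co2 0.25 and −0.13. Rgs5, a pericyte gene, had 1.72 on the capillary side and −4.56 on the other side, where it fell from 1117 CPM in Sham to 46.6 CPM in TBI and 2 of 65 Sham cells and 17 of 188 TBI cells held at least 3 genes of another cell type.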

How the results depend on the processing

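Of the main values under alternatives, 53 moved by less than 1.5 times or stayed within their interval and 9 did not. Small list medians took both signs in 8 of 16 lists, between −0.21 and 0.35, and the all-gene median ran from −0.02 to 0.04. With a minimum of 20 UMIs, 742 genes were higher and 695 lower in TBI, with 100 UMIs 73 and 43, and with no filter 3724 and 2541; the cause was not tested. The count of list genes past 1.5-fold, 21, became 34 with 20 UMIs and 64 with no filter. The median share of TBI capillary-side cells with a UMI over 12 capillary markers, 57.5%, became 44.5% at 1000 UMIs. Of values for single genes and lists, 401 stayed and 39 moved. Ttr went as low as 2.31 (without cells holding other-type genes), Enpp2 to 0.05 (lead of 2 genes), and C1qb to 1.03, C1qc to 0.95 and H19 to −0.03 as means over cells; without the hemoglobin limit Hbb-bs went to −0.02. The interferon-induced median lay between 0.23 and 0.36. No paired analysis was possible because each group has 1 library. Depth limits what the 65 Sham other-side cells can show: 3 UMIs there are 18.9 CPM.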
